A study of Caenorhabditis elegans with 2 samples.

Results

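DNA regions recovered with the homeodomain protein ALR-1 were examined beside the Caenorhabditis elegans genes for 3 families of cation channels, the DEG/ENaC channels, the nicotinic receptor family and the TRP channels. Members were protein-coding genes of the assembly WBcel235 in Ensembl's annotation whose names begin with del, delm, asic, acd, egas, acr, ocr, gtl, trp or trpa, together with 15 genes listed by name, such as mec-10, unc-29 and osm-9. They numbered 70 of 19973 genes, of which 28 were DEG/ENaC, 28 nicotinic and 14 TRP genes. A region was given to the gene whose transcript start lay nearest to the region's point source, its position of highest signal, at any distance. By this rule the channel genes held 43 of 12996 regions of the list called on both replicates together (the pooled list), 14 of 5071 regions of replicate 1 and 26 of 7568 regions of replicate 2. They held none of the peaks that passed the authors' threshold on the irreproducible discovery rate (IDR), which selects regions that rank alike in replicates; 96 of all genes had such a peak. The rule itself uses gene names, but the families and the 15 listed genes were picked with earlier results of these data known.

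The animals were whole second-stage (L2) larvae of mixed sex from the strain OP200, which carries unc-119(ed3) on chromosome III and the integrated transgene wgIs200 with eGFP-tagged alr-1. Chromatin immunoprecipitation with sequencing was done in 2 biological replicates that form 1 group, so conditions could not be compared, and values are set beside those of all genes or all pooled regions. The lists hold peaks together with background regions, and a candidate region is therefore not a called peak. The tag sits on a transgene and the DNA comes from whole animals, so binding in a small set of neurons cannot be told apart from weak binding in many cells.

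DEG/ENaC channels, named after the degenerins and the epithelial sodium channel, are sodium-permeable channels, and in worms some of them form the channels that open on touch. Nicotinic receptors are pentamers gated by acetylcholine or related ligands and carry excitation at neuromuscular junctions and between neurons, while TRP channels serve taste, smell, temperature, touch and ion balance. ALR-1 is a paired-like homeodomain factor related to Aristaless that is known to act in the development of several neuron types, among them the touch receptor neurons, where mec-10 works.

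The sequences around 6 of the 9 strongest channel regions are shown because these regions carry most of what follows. Each is the forward strand of WBcel235, 200 bases around the region's point, 5′ to 3′, with capitals marking TAATTA, the core that many homeodomain proteins bind. The lev-1 stretch had the highest GC content of the 6 (46.5%) and the acr-14 stretch the lowest (35.0%).

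acr-9 intron, chrX:13644946-13645145: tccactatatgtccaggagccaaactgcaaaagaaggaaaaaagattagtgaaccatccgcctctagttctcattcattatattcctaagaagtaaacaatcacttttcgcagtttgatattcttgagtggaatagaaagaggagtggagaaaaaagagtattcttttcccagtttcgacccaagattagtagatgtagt

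mec-10 gene body, chrX:8468733-8468932: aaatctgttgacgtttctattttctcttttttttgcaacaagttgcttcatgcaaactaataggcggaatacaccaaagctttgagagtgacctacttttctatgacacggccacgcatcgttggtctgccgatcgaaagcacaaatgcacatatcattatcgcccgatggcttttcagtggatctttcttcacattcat

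acr-14 start, chrII:8177147-8177346: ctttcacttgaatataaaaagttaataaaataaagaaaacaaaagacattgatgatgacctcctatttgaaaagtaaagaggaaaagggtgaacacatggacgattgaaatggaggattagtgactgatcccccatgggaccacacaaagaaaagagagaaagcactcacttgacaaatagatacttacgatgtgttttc

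mec-10 upstream, chrX:8470473-8470672: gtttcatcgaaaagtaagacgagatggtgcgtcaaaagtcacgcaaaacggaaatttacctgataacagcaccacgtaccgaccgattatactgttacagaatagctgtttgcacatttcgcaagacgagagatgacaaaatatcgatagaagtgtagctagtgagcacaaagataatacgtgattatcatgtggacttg

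lev-1 intron, chrIV:13177917-13178116: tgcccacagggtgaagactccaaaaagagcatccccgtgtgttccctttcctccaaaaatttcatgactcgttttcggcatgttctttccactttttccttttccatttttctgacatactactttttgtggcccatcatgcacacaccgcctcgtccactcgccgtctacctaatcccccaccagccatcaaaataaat

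del-2 upstream, chrIV:9642035-9642234: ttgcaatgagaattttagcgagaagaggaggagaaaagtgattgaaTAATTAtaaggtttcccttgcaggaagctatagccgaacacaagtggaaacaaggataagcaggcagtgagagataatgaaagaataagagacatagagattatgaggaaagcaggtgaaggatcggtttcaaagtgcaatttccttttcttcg

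TAATTA stood in 1 of these 6 stretches, the promoter region of del-2. Among all 43 channel regions, TAATTA on either strand lay within 100 bp of the point in 4 regions (9.30%, exact 95% interval 2.59 to 22.1), beside 7.97% of all pooled regions. The other 3 were those of acr-10, delm-1 and trpa-1, at rank percentiles of 73.9, 9.56 and 3.24. Motif matches were thus spread over strong and weak regions, and their share lay near that of the whole list. Channel regions had a median GC content of 36.8% in that window, and all pooled regions 37.8%.

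A pooled region lay nearest to 34 of the 70 channel genes (48.6%, exact 95% interval 36.4 to 60.8), beside 36.8% of all protein-coding genes. By family these were 13 of 28 DEG/ENaC genes, 14 of 28 nicotinic genes and 7 of 14 TRP genes. In replicate 1 alone 13 channel genes had a region (18.6%, beside 18.5% of all genes), and in replicate 2 alone 19 did (27.1%, beside 24.4%). Both replicate shares lay near those of all genes, and the pooled background lay just inside the interval of the pooled share.

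Channel genes also had more sequence around them in which a region could fall. The stretch of chromosome nearest to a gene's starts had a median length of 6.07 kb for channel genes and 3.78 kb for all genes. Per 100 kb of that sequence the channel genes had 8.12 pooled regions, and all genes had 12.97. The order was the same in the replicates, with 2.64 against 5.06 regions per 100 kb in replicate 1 and 4.91 against 7.55 in replicate 2. Counted by gene, the channel share was above the background, and counted by sequence it was below. When all genes were divided into 3 equal classes by this length, 48 channel genes fell in the largest class, where 25 of them had a pooled region (52.1%, beside 56.4% of all genes there). In the middle class 9 of 20 did (45.0%, beside 32.9%), and in the smallest class 0 of 2 (beside 21.2%).

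**Figure D1:**
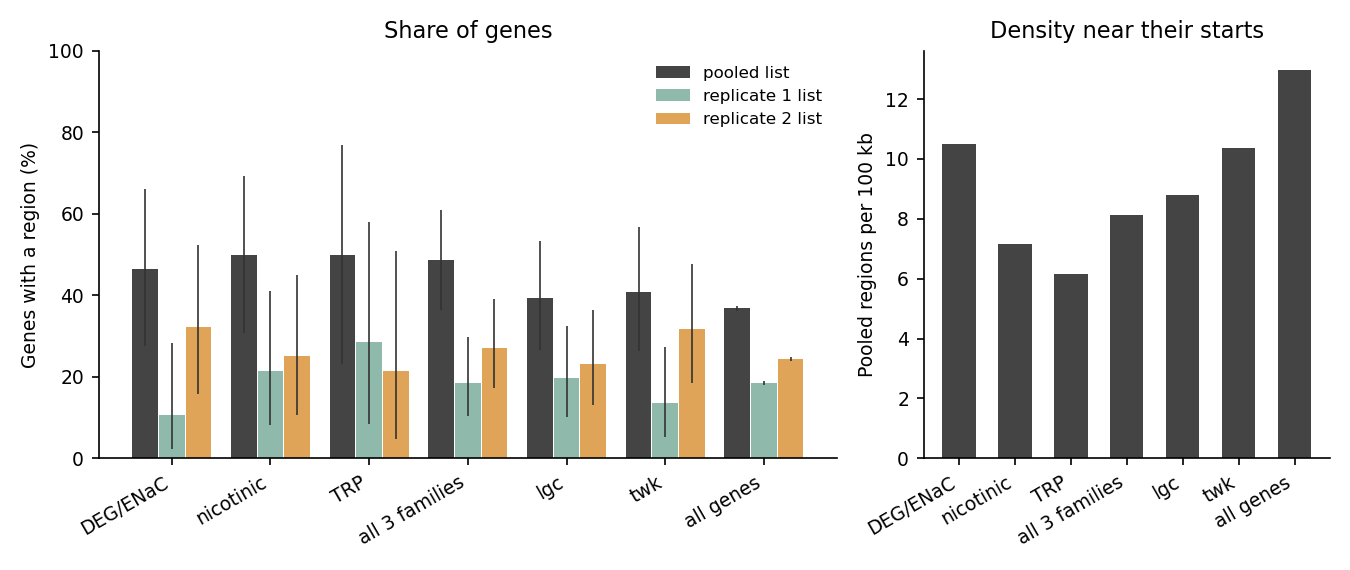
Left, percent of genes with a region in the pooled, replicate 1 and replicate 2 lists, for the channel families, the comparison families lgc and twk and all protein-coding genes, with exact 95% intervals as error bars. Right, pooled regions per 100 kb of the sequence nearest to the genes' starts; the 3 channel families sit at 10.5, 7.17 and 6.15, all under the 12.97 of all genes.

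The channel regions ran from the lowest part of the pooled list to rank 150, and all 43 lay under the weakest IDR peak. Fewer than 150 of the 12996 pooled regions had a higher signal than the strongest channel region. Nearly all pooled regions thus lay under that peak as well, and this is not a trait of the channel regions. The signal is the authors' own value for each region, in a unit the files do not name. It ran from 19.3 at acr-9 to 2.63 at trpa-1, and the lowest IDR peak had 21.3. Ranked by signal within the pooled list, with 100 for the strongest, channel regions had a median percentile of 52.4 and quartiles of 25.9 and 74.7, beside a median of 50.2 for all pooled regions. The authors' q-value was at most 0.05 for 9 of 43 channel regions (20.9%, beside 17.5% of all pooled regions), which belonged to 8 genes. None of the 70 genes had an IDR peak (exact 95% interval 0 to 5.13%), where 0.481% of all genes had 1 or more. With so low a background, the count of 0 is not a result about these genes.

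Among the DEG/ENaC genes, mec-10 had the most regions. It encodes a subunit of the touch transduction channel of the touch receptor neurons. The gene had 4 pooled regions, the most of any channel gene, and 3.18% of all genes had as many or more. The strongest lay in the gene body at chrX:8468673-8468992, with its point in an exon 1481 bp downstream of the start. Its signal was 9.80 in the pooled list and 7.78 in replicate 2 (rank 750), and replicate 1 had no region there.

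The mec-10 region next in strength lay just upstream of the gene at chrX:8470413-8470732, with its point 259 bp from the start. It had a signal of 8.80 in the pooled list, 3.22 in replicate 1 (rank 2033) and 5.98 in replicate 2 (rank 1424). It was the only mec-10 region found in both replicates, and the replicates' points differed, at 152 bp upstream in replicate 1 and 34 bp upstream in replicate 2. Farther out, a region 2647 bp upstream had a signal of 4.41 and was in neither replicate. A region in an exon 3189 bp downstream had 2.78 in the pooled list and 2.78 in replicate 2. The gene thus had strong candidates at its start and in its body and weaker ones at the edges.

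**Figure D2:**
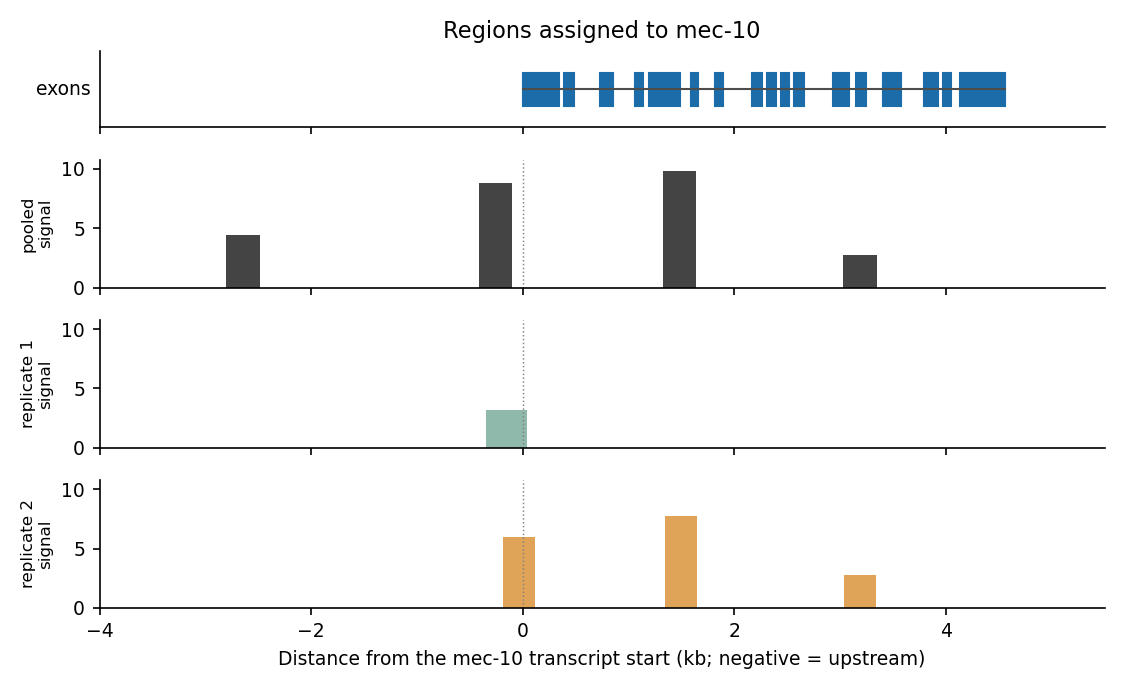
Candidate regions given to mec-10, as distance from its transcript start in kb, with the signal of each region as bar height and the exons above. Replicate 1 has 1 region, at the start, while replicate 2 has 3 and the pooled list 4.

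The other degenerins listed by name were weaker or had no region. The gene deg-1, named for the neuron degeneration its gain-of-function alleles cause, had 2 pooled regions inside an intron, 1368 and 3610 bp upstream of its nearest start, with signals of 3.96 and 4.16. Replicate 2 had both, with 3.96 and 2.46, and replicate 1 had neither. For unc-8, which encodes a channel of motor neurons, a region 416 bp downstream of a start had a signal of 2.78 and was in neither replicate. By nearest start, no list gave a region to degt-1 or to unc-105, whose product acts in muscle.

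The strongest DEG/ENaC region of all belonged to acd-2, of the acid-sensitive acd group, at chrI:4091785-4092104, in intergenic sequence 2215 bp upstream. Its signal was 11.4 in the pooled list and 9.22 in replicate 2 (rank 472), but 2.07 in replicate 1, where it ranked 4913 of 5071. It counted as found in both replicates and was near the bottom of the list in one of them. Of the del genes, del-2 had a promoter region 110 bp upstream at chrIV:9641975-9642294, with 8.17 in the pooled list and 7.14 in replicate 2 (rank 943), and none in replicate 1. The gene del-8 had 3 pooled regions, 346 bp upstream, 2338 bp downstream and 6224 bp downstream of an internal start, with signals of 2.81, 4.70 and 4.52. The first of the del-8 regions lay inside the gene body, and the others lay beyond its end. The farthest del-8 region ranked 763 in replicate 2, with a signal of 7.73, and 5340 in the pooled list. No del-8 region was in replicate 1, and replicate 2 had another that was not in the pooled list, 4227 bp downstream with 2.17.

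Regions of the remaining DEG/ENaC groups were in the middle or lower part of the list. Both asic genes, relatives of the vertebrate acid-sensing channels, had regions, and asic-2 had 2, at 487 bp downstream with a signal of 3.89 and at 1385 bp upstream with 3.54. Replicate 2 had both, with 3.69 and 3.29. The gene delm-1, which acts in glia, had a region in an exon with a signal of 2.78, and egas-1, for a protein that joins EGF-like repeats to a DEG/ENaC channel, had a promoter region with 2.63. The latter pair was in neither replicate. The regions of acd-3, asic-1 and del-5 had pooled signals of 3.64, 3.18 and 4.14, of which replicate 2 had the first pair. Replicate 2 had another del-5 region that was not in the pooled list, 2950 bp downstream with 2.17. The region of acd-5 had 2.78 in the pooled list and in replicate 1. A region in at least 1 list was given to 13 of 28 DEG/ENaC genes (46.4%, beside 41.6% of all genes). No list gave a region to the other 15, acd-1, acd-4, degt-1, del-1, del-3, del-4, del-6, del-7, del-9, del-10, delm-2, egas-2, egas-3, egas-4 and unc-105.

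In the nicotinic family, the subunits of the levamisole receptor of body-wall muscle were treated apart. Pooled regions lay beside 4 of the 5 (exact 95% interval 28.4 to 99.5%), beside 36.8% of all genes, an interval that holds the background. They were at unc-63, lev-1, unc-29 and unc-38. The unc-63 region, 1516 bp upstream at chrI:5139997-5140316, had a signal of 8.53 in the pooled list and was in neither replicate. The lev-1 region lay in an intron 1303 bp downstream, at chrIV:13177857-13178176. Its signal was 8.28 in the pooled list, 5.81 in replicate 2 (rank 1515) and 2.20 in replicate 1, where it ranked 4709. Both of these were strong in the pooled list, and replicate 1 had the one near the bottom of its list and lacked the other.

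The subunit genes unc-29 and unc-38 had weak regions at their starts. For unc-29 the point lay 66 bp upstream, with a signal of 3.46 in the pooled list and 2.78 in replicate 1, and replicate 2 had none. For unc-38 it lay 54 bp downstream, with 2.88, in neither replicate, and the start of the neighbouring gene icmt-1 was 998 bp away. The fifth subunit gene, lev-8, had no pooled region, although each replicate alone had at least 1. Replicate 1 had regions 475 bp upstream and 107 bp downstream, with signals of 2.61 and 2.32, and replicate 2 had a region 861 bp upstream with 2.32. The nearest regions of the 2 replicates were 39 bases apart and did not overlap.

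The strongest channel region of all lay in an intron of acr-9, which encodes a nicotinic receptor subunit, at chrX:13644886-13645205 and 1852 bp downstream of the start. Its signal was 19.3 in the pooled list (rank 150) and 14.1 in replicate 2 (rank 116), and replicate 1 had no region there. At the start of acr-14, 52 bp upstream at chrII:8177087-8177406, a promoter region had 9.12 in the pooled list, 5.14 in replicate 1 (rank 659) and 5.004 in replicate 2 (rank 2038). This was the channel region best placed in replicate 1. It was above the middle of both replicate lists, as was the mec-10 region 259 bp upstream. The 2 genes differed in that the stronger rested on replicate 2 and the weaker had a region in each.

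A further 3 acr regions completed the 12 strongest. A region 181 bp downstream of the start of acr-12, for a subunit of motor neuron receptors, had 6.92 in the pooled list and 3.76 in replicate 2 (chrX:13532874-13533193). For acr-23, the betaine receptor gene, a region 1054 bp upstream had 6.07 and was in neither replicate (chrV:3660466-3660785). An exon region of acr-10, 2757 bp downstream, had 5.90 in the pooled list and 5.15 in replicate 2 (chrX:4024864-4025183). None of these was in replicate 1, and their q-values were above 0.05.

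Other nicotinic genes had weak regions or none. The gene acr-20, a relative of the receptor gene deg-3, had a region 1302 bp upstream with a signal of 4.70 in the pooled list and 2.78 in replicate 1, and a further region in an exon with 2.78. The receptor gene deg-3 was given no pooled region by nearest start. A replicate 1 region 1977 bp upstream, in an exon outside the deg-3 body, had a signal of 2.78. The partner gene of deg-3, des-2, which lies upstream of it, had a promoter region with a pooled signal of 4.64. Another des-2 region, 1383 bp upstream of the des-2 start, had 3.93. Regions of acr-24, acr-19, acr-6 and acr-7 had pooled signals of 3.86, 3.86, 3.38 and 2.63, and replicate 2 had the one at acr-19. No list gave a region to eat-2, which sets the rate of pharyngeal pumping, to acr-16, the nicotine-sensitive receptor of muscle, or to acr-2 and acr-3, which encode subunits of the motor neuron receptor. The other nicotinic genes given no region in any list were acr-5, acr-8, acr-11, acr-15, acr-17, acr-18, acr-21 and acr-25.

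Of the TRP genes, trp-4 had the strongest region. It encodes a TRPN channel of mechanosensory neurons, and the region lay in an intron 2239 bp downstream, at chrI:13901164-13901483. Its signal was 9.81 in the pooled list and 9.35 in replicate 2 (rank 450), and replicate 1 had none. The TRPM gene gon-2, required for gonad development, had a region in an exon 725 bp downstream of an internal start, with 4.70 in the pooled list and 3.37 in replicate 1, and a promoter region 525 bp upstream with 3.67 in neither replicate. No TRP region was found in both replicates.

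Of the 5 sensory TRPV genes, 2 had a region in at least 1 list (40%, beside 41.6% of all genes). A region inside the body of ocr-1, 544 bp upstream of an internal start, had a signal of 4.597 and was in neither replicate. By nearest start, ocr-4 had only a replicate 1 region, 4859 bp upstream with 2.78, in an exon outside the ocr-4 body. A pooled region in an intron of ocr-4, with 2.78 and rank 2874 in replicate 1, lay nearest to sqst-2 and was given to that gene. By nearest start, no list gave a region to osm-9 or ocr-2, which act together in sensory neurons, to ocr-3, or to the polycystin gene pkd-2 of male sensory neurons. A weak pooled region in an intron of osm-9, with a signal of 2.65 and rank 2425 in replicate 2, lay nearest to the start of nstp-6 and was given to that gene. Both TRPA genes had a pooled region. That of trpa-2 lay 1072 bp upstream with 4.21, in neither replicate, and that of trpa-1, 3499 bp downstream, had 2.63 in the pooled list and 3.46 in replicate 2. Each replicate had a further trpa-1 region that was not in the pooled list, 2403 bp downstream in replicate 1 and 709 bp upstream in replicate 2. Stronger pooled regions in introns of trpa-1, with signals of 5.25 and 4.69, lay nearest to the start of pph-2 and were given to that gene. Replicate 2 had the weaker of these, and replicate 1 had neither. The promoter region of gtl-2, for a TRPM channel, had 3.86 in the pooled list and 2.78 in replicate 2, and a region 2306 bp upstream of trp-1, for a TRPC channel, had 2.78 in the pooled list and in replicate 1. The TRP genes gtl-1 and trp-2 were given no region in any list.

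Regions supported by both replicates were few. A pooled region that overlapped a region of each replicate by at least 1 bp was found at 4 of 70 genes (5.71%, beside 6.67% of all genes), acd-2, acr-14, mec-10 and lev-1, with 1 region each. They were 4 of 43 channel regions (9.30%, exact 95% interval 2.59 to 22.1), beside 13.3% of all pooled regions. Overlap with replicate 2 alone was found for 18 regions (41.9%, beside 35.4% of all), with replicate 1 alone for 5 (11.6%, beside 17.6%), and with neither for 16 (37.2%, beside 33.8%). Replicate 1 thus had a smaller part in the channel regions than in the whole list, with 20.9% of them (exact 95% interval 10.04 to 36.04) against 30.9%, and the background lay inside the interval. Of the 9 channel regions with a q-value of at most 0.05, 8 were in replicate 2 (88.9%, beside 86.3% of all pooled regions at that q-value) and 4 in replicate 1 (44.4%, beside 58.9%). With points required to lie within 100 bp, or with 50% of the pooled region covered, acd-2 and acr-14 remained of the 4.

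**Figure D3:**
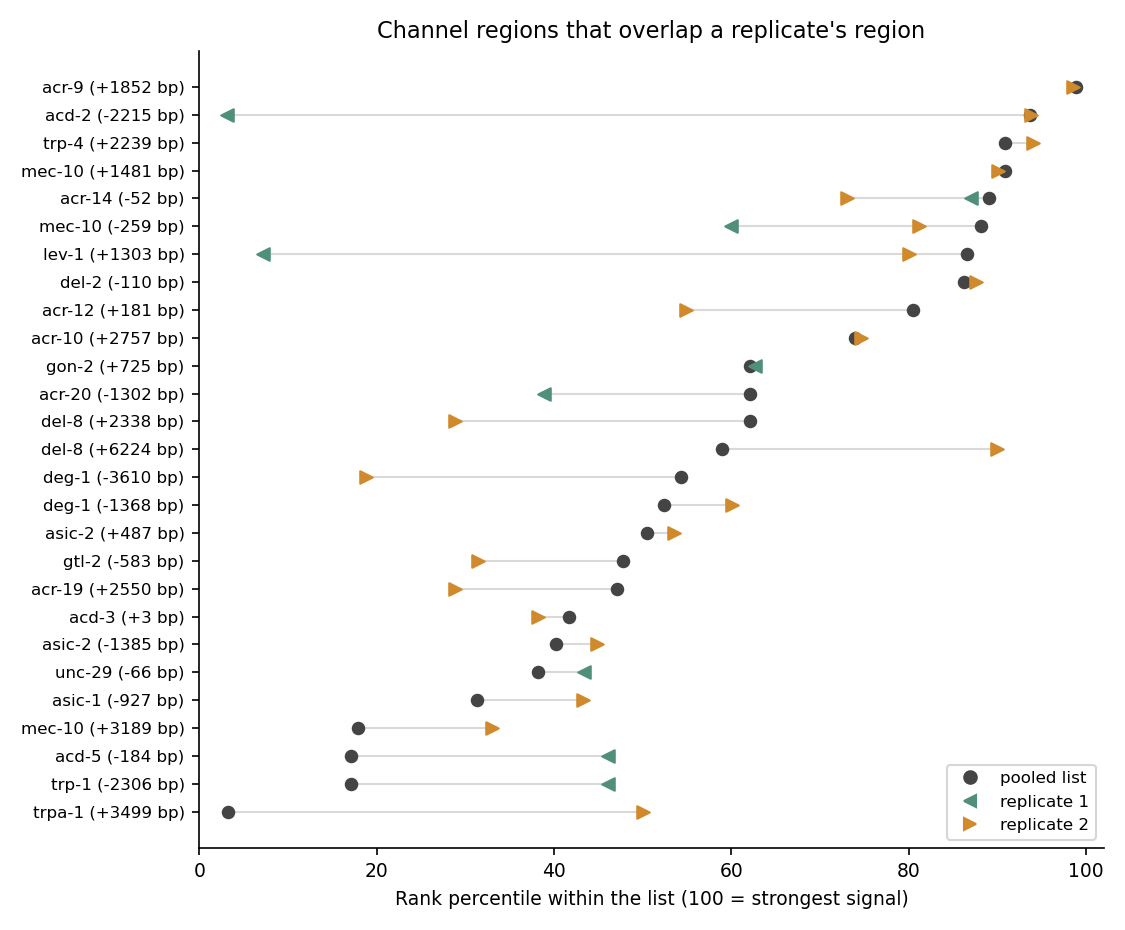
Rank percentile in the pooled list (circles), replicate 1 (triangles to the left) and replicate 2 (triangles to the right) for the 27 channel regions that overlap a replicate's region, strongest first, with the distance from the start beside each gene. At acd-2 and lev-1 replicate 1 sits at 3.14 and 7.16 and replicate 2 at 93.8 and 79.99. Both replicates lie above 50 at acr-14 and at the mec-10 region 259 bp upstream.

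By position, 15 of 43 channel regions lay in a promoter (34.9%, exact 95% interval 21.0 to 50.9), a window reaching 1000 bp upstream and 200 bp downstream of any protein-coding start, beside 40.3% of all pooled regions. Exons outside promoters held 9 (20.9%, beside 11.8%), introns 8 (18.6%, beside 21.6%) and intergenic sequence 11 (25.6%, beside 26.4%). The exon regions, at genes such as mec-10, gon-2, acr-10 and acr-19, had a share whose interval (10.04 to 36.04) held the background. The median distance to the start was 1072 bp, beside 1012.5 bp for all regions, and 23 of the 43 points lay inside the body of the gene they were given to. For 10 regions (23.3%), the start of another gene was less than 2 times as far away as that of the channel gene. The last 2 counts were not made for all pooled regions, so they are not results about the channel regions.

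**Figure D4:**
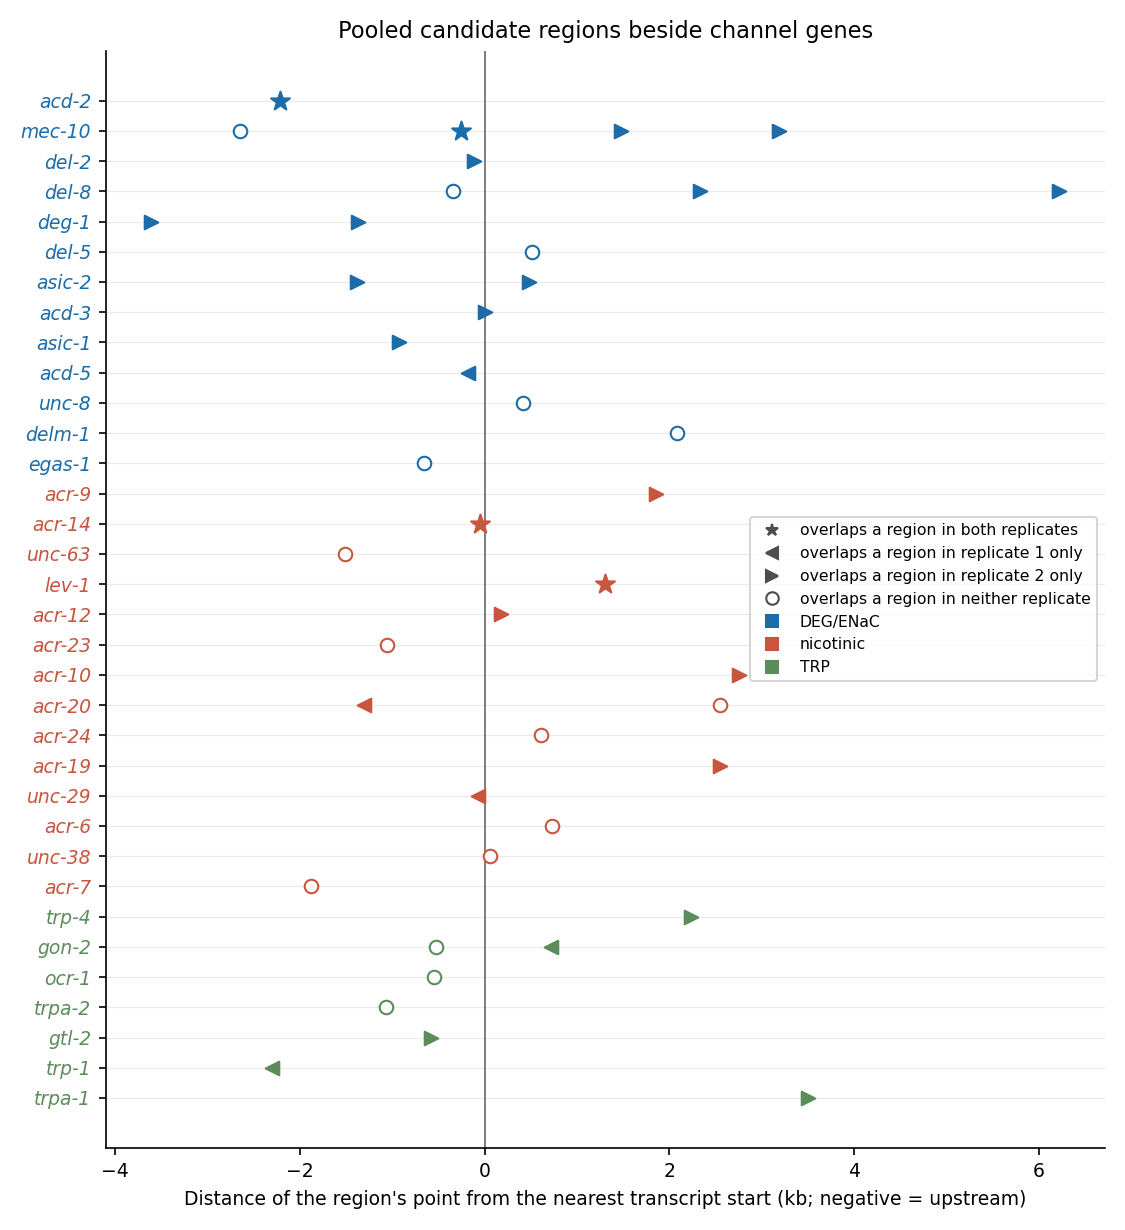
Distance of each of the 43 pooled regions from the nearest transcript start of its channel gene in kb, with 1 row for each of the 34 genes, coloured by family and marked by overlap with the replicates. Stars mark the 4 regions found in both replicates, at acd-2, mec-10, acr-14 and lev-1.

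The chromosomes differed. On X, 8 of 15 channel genes had a pooled region (53.3%, beside 53.0% of all genes on X), with 14 regions, among them all those of mec-10, del-8 and deg-1. On chromosome I, 12 of 17 did (70.6%, beside 40.3%), including all 3 levamisole receptor genes there, and on chromosome V 3 of 13 did (23.1%, beside 27.5%). The 10 channel genes of chromosome V with no pooled region included acr-16, deg-3 and degt-1. These are counts of few genes, and no test was made.

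Genes whose products work with these channels, a list of 22 names of which 21 matched, were examined beside them. Pooled regions lay beside 12 of 21 (57.1%, exact 95% interval 34.0 to 78.2, beside 36.8% of all genes), with 16.7 regions per 100 kb, beside 12.97. A q-value of at most 0.05 was given for 6 of 19 regions (31.6%, exact 95% interval 12.6 to 56.6, beside 17.5%). Both intervals hold the background. By gene, 6 of 21 had a region with a q-value of at most 0.05 (28.6%, interval 11.3 to 52.2, beside 9.37%). A replicate 2 region lay beside 11 of 21 (52.4%, 29.8 to 74.3, beside 24.4%). A region of any list lay beside 16 (76.2%, 52.8 to 91.8, beside 41.6%). The last 3 intervals lay above the background, while that of replicate 1 (5 of 21, 8.22 to 47.2) held its 18.5%. The list was chosen with earlier results known, and no test was made, so these intervals cannot show that the list departs from all genes. The regions of lev-10 and eat-18, at chrI:14388631-14388950 and chrI:14391462-14391781, lay close together and counted for separate genes. None of the 19 partner regions was found in both replicates, beside 13.3% of all pooled regions. The gene mec-4, whose product forms the touch channel with MEC-10, had 4 pooled regions. Those in an exon of mec-4 overlapped each other and the same replicate 1 region (rank 1646), whereas the 4 regions of mec-10 lay apart. The strongest mec-4 region lay 144 bp upstream, with a signal of 6.86 in the pooled list and 4.82 in replicate 2. The strongest partner regions were those of 3 genes that act on nicotinic receptors. Of the same list, crld-1 and lev-9 had weaker regions, with 4.698 and 4.03, while unc-50, emc-6, molo-1 and oig-4 had no pooled region. The regions at nra-2, lev-10 and ric-3 had pooled signals of 14.7, 13.9 and 13.2 and replicate 2 ranks of 153, 200 and 76, and replicate 1 had no region at any of them. These 3 genes and mec-4 were chosen for naming once their values were known.

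The lgc genes for other ligand-gated channels and the twk genes for potassium channels were taken for comparison. A pooled region lay beside 22 of 56 lgc genes (39.3%) and 18 of 44 twk genes (40.9%), with 8.81 and 10.4 regions per 100 kb, and no IDR peak. The median rank percentile was 42.4 for lgc regions and 43.6 for twk regions, against 52.4 for the channel regions. Regions in both replicates made up 5.88% and 12.9%. No difference between these families was tested.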

How the data were processed

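Data were regions from chromatin immunoprecipitation with sequencing of 2 biological replicates of 1 group, read from the lists on build ce11, whose chromosomes match WBcel235. The authors deposited a signal value for each region, on a scale that is not stated, and a −log10 q-value, by the format of the deposited lists. The IDR threshold, aligner and caller were not given in the sources used here. The build ce10 lists were not used. Read depth is unknown, so precision could not be derived from it.

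Coordinates are 1-based. Regions were given to the nearest protein-coding transcript start on 6 chromosomes (9 pooled regions equally near to 2 genes counted for both, and none was a channel region). Shares have exact Clopper-Pearson 95% intervals, which cover counting error only and treat regions as independent. No enrichment or other chance test was made. Members and gene lists were chosen with earlier results of these data known. Named were the 12 strongest channel regions, regions in both replicates, the genes with most regions, the strongest of each group and the 15 listed genes; others account for all members. Alternatives covered distance limits, start choice, stringency, replicates, overlap, promoter and motif windows. The code was tested on simulated data. Tables were handled with pandas 2.3.3 and numpy 2.4.6 in Python 3.11.15, intervals with scipy 1.17.1 and plots with matplotlib 3.10.9. Sequences come from the RefSeq copy of WBcel235, without annotated UTR bases.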

Additional observations from a re-analysis of the deposited data

How the results depend on the processing

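No paired analysis was possible because all samples form 1 group. All alternatives were planned. A pooled region lay beside 34 channel genes, and beside 33 within 3000 bp or with 1 start per gene. The count was 19 (27.1%) within 1000 bp, beside 25.3% of all genes, 19 with the stronger part of the pooled list (50%), beside 21.7%, and 13 to 19 with each replicate alone, beside 18.5% and 24.4%. These settings use fewer regions or less sequence by construction; the cause of other shifts was not tested. The median rank percentile (52.4) was 73.9 in the stronger part, where the median of all regions was 75.0, and 38.8 to 51.8 with each replicate alone. Region density (8.12 per 100 kb) was 10.6 within 3000 bp (13.7 for all genes), 4.34 in the stronger part (6.49) and 2.64 to 4.91 with each replicate alone, below that of all genes in each. The promoter share (34.9%) was 51.2% for promoters reaching 2000 bp upstream and 18.6% for 500 bp, beside 55.5% and 27.6% of all regions. In the stronger part it was 21.7%, beside 46.0%. TAATTA (9.30%) was at 23.3% in a window of 250 bp, beside 20.7%, and 0 to 11.5% with each replicate alone. The share in both replicates was 4.65% with 50% of the region covered or points within 100 bp (all regions 9.60% and 6.75%), and 17.4% in the stronger part (24.3%). Among the 500 strongest pooled regions 1 channel gene, acr-9, had a region, and among as many of the strongest regions of either replicate as there are IDR peaks, 0 did. Neither count was made for all genes, so neither is a result about the channel genes. Depth is unknown, and with 43 regions the intervals are wide.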

Other observations

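A further 14 pooled regions lay inside the body of a channel gene but nearest to the start of another gene, and were therefore not counted above. The strongest lay in an intron of acr-18, 6895 bp upstream of glb-14, a globin gene, with a pooled signal of 8.35 and rank 583 in replicate 2. Another, with a signal of 7.19, lay in the body of acr-7 and just upstream of T09A5.4, in its promoter. An exon of deg-1 held a region with a signal of 2.61 whose nearest start, at 2289 bp, was that of mec-7, which encodes a beta-tubulin of the touch receptor neurons. The body of mec-10 held another region, with a signal of 2.99, nearest to F16F9.4. Of the 33 genes given no region in any list, 7 held such a pooled region, namely acd-4, acr-5, acr-18, del-9, egas-3, gtl-1 and osm-9. No IDR peak lay inside a channel gene in this way. The same counts were not made for all genes, so these are not results about the channel genes.

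The IDR peaks nearest to channel genes were 4652 bp from asic-2 (rank 58, nearest to T28F4.1) and 7835 bp from acr-14 (rank 94, nearest to mig-5, a Dishevelled gene). No other channel gene had an IDR peak within 10000 bp of its body. The share of all genes with an IDR peak so near was not determined.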
